A study of Mus musculus with 6 samples.

Results

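The Id genes Id1, Id2, Id3 and Id4 were described in J1 mouse embryonic stem cells, on 3 arrays from cells treated with 3 µM SB431542 over 24 h and 3 arrays from cells given DMSO for the same time. Members were all non-control probes whose RefSeq accession maps to one of the 4 genes, which gave 4 probes, 1 per gene, of 55681 probes on the array, or 4 of 20660 named genes. All 4 were well above background on all 6 arrays and entered the test of 36184 probes. J1 is a line of strain 129S4/SvJae, derived from the inner cell mass. Both groups grew on gelatin without feeder cells, in medium with serum replacement and the cytokine LIF, and the growth protocol names no added BMP. Total RNA was labelled with Cy3 on 1-colour Agilent arrays. The labels leave unsaid whether replicates came from separate cultures. The p-values therefore cover the spread among these samples alone, and that spread may be technical.

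Id proteins hold a helix-loop-helix domain but no basic region, so they dimerise with basic helix-loop-helix (bHLH) transcription factors, above all the E proteins, and keep them from binding DNA. BMP ligands, through their type I and type II receptors and the transcription factors Smad1, Smad5 and Smad4, induce Id genes in many cell types. In mouse embryonic stem cells, BMP with LIF sustains self-renewal, and Id proteins hold back lineage bHLH factors. SB431542 blocks the kinases of ALK4, ALK5 and ALK7, the receptors by which activin, Nodal and TGF-beta act through Smad2 and Smad3, and it is used as an inhibitor that spares the BMP type I receptors. The comparison asks how these BMP-Smad target genes stand when the other branch of the superfamily is inhibited.

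RefSeq promoter windows were at hand for 3 of the 4 genes (assembly GRCm38.p6), and the 250 bases before each start are shown because they let a reader set a gene that rose (Id3) beside one that did not pass the test (Id2) and one that was lower (Id4). The windows are chr4:136143572-136143821 on the plus strand for Id3, chr12:25096093-25096342 on the minus strand for Id2 and chr13:48260866-48261115 on the plus strand for Id4, each written 5′ to 3′. Capitals mark matches to the palindrome GGCGCC, the core of a GC-rich element bound by BMP Smads.
Id3: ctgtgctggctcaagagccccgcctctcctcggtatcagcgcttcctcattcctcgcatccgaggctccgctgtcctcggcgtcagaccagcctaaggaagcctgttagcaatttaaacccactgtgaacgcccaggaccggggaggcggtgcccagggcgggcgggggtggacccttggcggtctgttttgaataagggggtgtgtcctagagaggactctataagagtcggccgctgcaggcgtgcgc
Id2: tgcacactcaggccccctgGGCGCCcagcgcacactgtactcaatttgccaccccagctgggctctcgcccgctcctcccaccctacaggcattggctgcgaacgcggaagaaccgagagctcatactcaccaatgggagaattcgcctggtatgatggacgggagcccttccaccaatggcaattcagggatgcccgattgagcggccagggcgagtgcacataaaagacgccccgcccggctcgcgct
Id4: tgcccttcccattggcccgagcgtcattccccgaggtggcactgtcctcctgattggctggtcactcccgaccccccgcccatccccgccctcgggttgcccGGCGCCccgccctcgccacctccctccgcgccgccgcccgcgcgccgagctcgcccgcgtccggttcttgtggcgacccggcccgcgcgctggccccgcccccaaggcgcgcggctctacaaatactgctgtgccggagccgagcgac
The search covered these bases and the 50 after the start, on both strands, for CAGACA, GTCTAGAC (both holding the Smad-box letters), GGCGCC, TGACGTCA (ATF/CREB), GCGTGGGCG (Egr), CCATCTTG (Yy1) and CACGTG (an E-box). GGCGCC was found 1 time for Id2, 231 bases before the start, and 1 time for Id4, 148 bases before it, and in 11.9% of all 32851 windows of that length. The other motifs had 0 matches in the 3 windows. Among all windows, CAGACA was found in 21.0%, GTCTAGAC in 0.213%, TGACGTCA in 1.79%, GCGTGGGCG in 0.612%, CCATCTTG in 2.12% and CACGTG in 7.15%. A match is a description of letters, not of binding, and the windows are short, so a factor may bind outside them. The GC content was 62.8% for both Id3 and Id2 and 75.6% for Id4, against a median of 52.4% over all windows.

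Id1 and Id3 were higher with SB431542. Each array's signal is given as a percentage of that array's 75th percentile of processed signal, which removes differences in overall brightness. Id1 stood at 101%, 97.2% and 115% on DMSO replicates 1 to 3 and at 199%, 189.5% and 222% on SB431542 replicates 1 to 3. All 3 treated arrays lay above all 3 control arrays, with the highest value on SB431542 replicate 3. The log2 change was 0.97 ± 0.09 (SE, 3 arrays per group), a 1.95-fold rise with a 95% interval of 1.66 to 2.29 (limma adjusted p = 0.00347). Id3 stood at 196%, 190.4% and 191% with DMSO and at 311%, 307% and 294% with SB431542, again with no overlap. Its log2 change was 0.66 ± 0.05, a 1.58-fold rise with an interval of 1.44 to 1.73 (limma adjusted p = 0.00195). Id3 also varied least among replicates, with a pooled SD of 0.03 on the log2 scale, below that of all but 3.54% of probes tested, while Id1 had 0.12, close to the median of 0.12 over all probes. Adjusted p under 0.05 was called for 10.8% of all probes tested, 4.29% higher and 6.49% lower, and 34.7% of probes had no overlap between the groups, 17.6% with all treated arrays above and 17.1% with all below. In bulk RNA, more cells of a type and more RNA per cell cannot be told apart.

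Id2 did not pass the test, and Id4 lay at its edge in the other direction. Id2 stood at 62.0%, 59.4% and 59.5% with DMSO and at 64.6%, 59.2% and 72.2% with SB431542. The groups overlapped, since SB431542 replicate 2 lay below every DMSO array. The log2 change was 0.11 ± 0.09 with a 95% interval of -0.10 to 0.32 (limma adjusted p = 0.461), so the interval reaches from 0.935-fold to 1.25-fold. Id4 stood at 21.4%, 22.3% and 18.0% with DMSO and at 16.2%, 14.3% and 13.7% with SB431542. The groups did not overlap, and the nearest pair was DMSO replicate 3 and SB431542 replicate 1. Id4 fell by 0.48 on the log2 scale (SE 0.11), to 0.718 of the DMSO level with an interval of 0.595 to 0.866 (limma adjusted p = 0.0478). Leaving out any 1 of the 6 arrays put its adjusted p above the threshold. With DMSO replicate 1, 2 or 3 left out the adjusted p became 0.153, 0.154 or 0.0502. With SB431542 replicate 1, 2 or 3 left out it became 0.0571, 0.121 or 0.106, and the log2 changes over all 6 ran from -0.57 to -0.42.

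**Figure D1:**
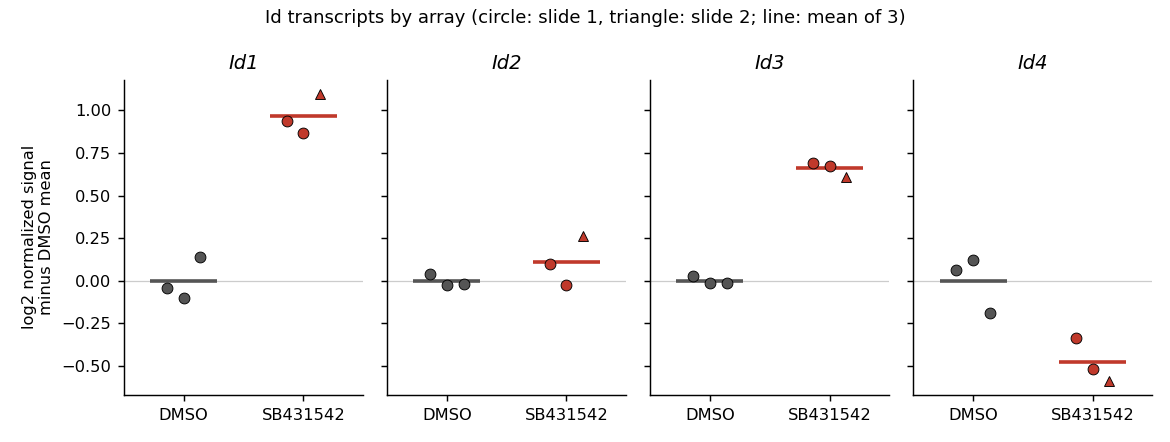
Each panel shows 1 Id gene, with the log2 normalized signal of each array minus the DMSO mean on the vertical axis and the 2 groups on the horizontal axis. Points are arrays, triangles mark the array on slide 2 and lines are means of 3. Id1 lies 0.87 to 1.10 above the DMSO mean on the treated arrays and Id3 0.61 to 0.69 above it, Id2 overlaps, and Id4 lies below.

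SB431542 replicate 3 was the only array on slide 2, with a scan of its own, so slide and scan could be held constant only by leaving it out. On slide 1 alone Id1 changed by 0.90 ± 0.09 (limma adjusted p = 0.0110), Id3 by 0.68 ± 0.05 (0.00564), Id2 by 0.04 ± 0.06 (0.756) and Id4 by -0.42 ± 0.12 (0.106). The value of Id2 was thus 0.11 with the slide 2 array and 0.04 without it. Id1 and Id3 kept their direction and stayed past the threshold on slide 1, and the part of the slide in the values of Id2 and Id4 was not tested.

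The 4 genes were then compared with each other by their changes, since levels of different probes are not comparable. The change of Id1 exceeded that of Id3 by 0.31 on the log2 scale, that of Id2 by 0.85 and that of Id4 by 1.44. The change of Id3 exceeded that of Id4 by 1.14, and that of Id2 differed from Id3 by -0.55 and from Id4 by 0.59. In each of the 6 pairs the within-array differences of the treated arrays did not overlap those of the control arrays. For Id1 against Id3 they ran from -0.97 to -0.74 with DMSO and from -0.70 to -0.40 with SB431542, which is the narrowest gap of the 6. The 6 pairs are made from 4 probes, so they are not separate observations. Among single probes tested, 34.7% had no overlap between the groups. An exact two-sided permutation test over the 20 assignments of the arrays gave p = 0.1 for every pair, also after adjustment over the 6 pairs, and this is the smallest p that 3 arrays against 3 allow. The order Id1, Id3, Id2, Id4 therefore describes these arrays and does not reach a threshold of 0.05.

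Among all probes tested, the change of Id1 ranked 223 from the top of 36184 and that of Id3 ranked 666. Id2 lay at the 68.4th percentile of changes and Id4 at the 6.69th. The median change over all probes was 0.01, and it stayed between 0.0046 and 0.02 under the other scalings, far less than the changes of Id1, Id3 and Id4.

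**Figure D2:**
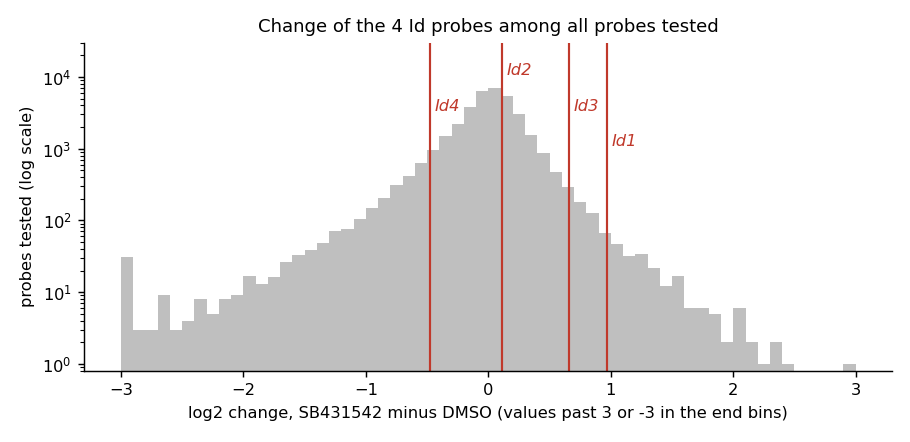
The histogram counts all 36184 probes tested by their log2 change on a log-scaled vertical axis, and red lines mark the 4 Id probes. Id1 at 0.97 and Id3 at 0.66 lie in the upper tail, Id2 at 0.11 lies near the centre and Id4 at -0.48 lies on the lower side.

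**Figure D3:**
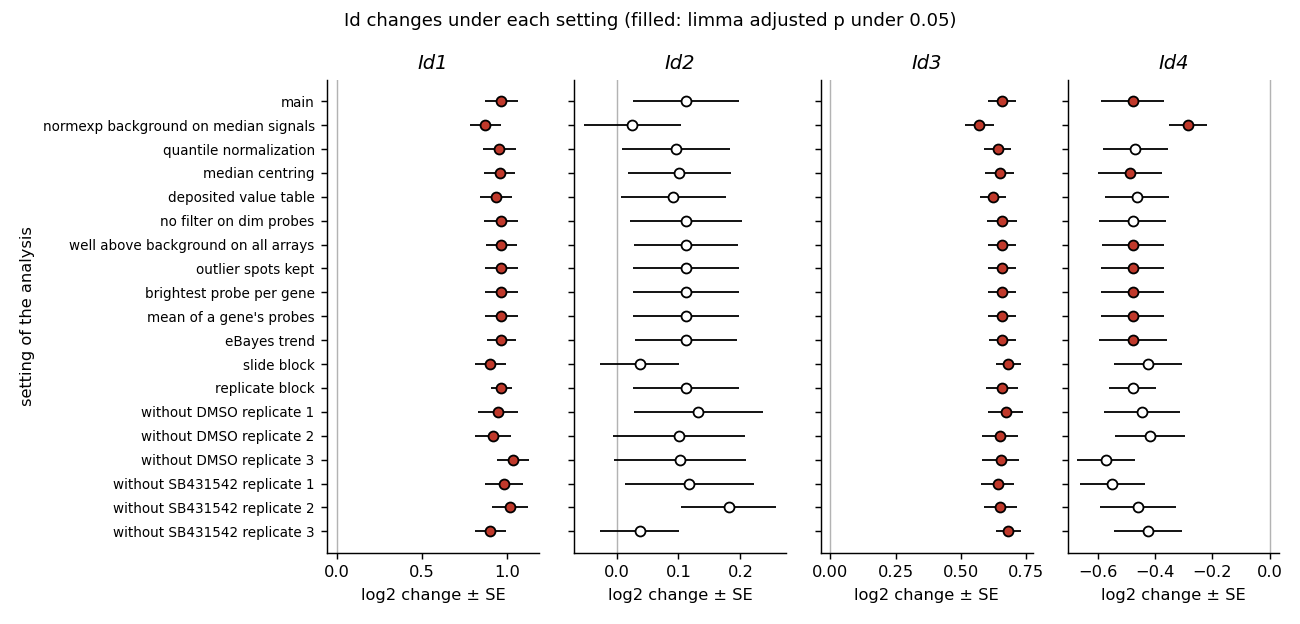
Each panel shows 1 Id gene with its own horizontal axis, and each line gives the log2 change ± SE under 1 setting of the analysis, filled where the limma adjusted p was under 0.05. Id1 ranges from 0.87 to 1.03 and Id3 from 0.57 to 0.68, filled throughout, Id2 from 0.03 to 0.18 is open throughout, and Id4 is filled in some settings.

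Of the genes that carry the BMP signal upstream of the Id genes, 1 ligand, Bmp4, rose. Bmp4, the BMP ligand known for sustaining embryonic stem cells, stood at 1.14, 0.911 and 0.965 times its DMSO mean on the control arrays and at 2.00, 1.98 and 1.94 times on the treated arrays. This is a log2 rise of 0.98 ± 0.09 (limma adjusted p = 0.00326). Whether the rise of Bmp4 bears on the Id changes was not tested. Of 8 ligand genes tested, 1 rose and 2 fell, with a median change of -0.13. The shares over all probes were 4.29% higher and 6.49% lower. With another background correction (normexp), or with the replicate number as a block, 1 ligand fell. Bmp6 fell to 0.348, 0.530 and 0.442 times the DMSO mean (log2 change -1.21 ± 0.17). Its processed signals were low, at 37.2 to 44.3 with DMSO and 13.3 to 18.6 with SB431542, though well above background on all arrays. Bmp8b changed by -0.54 ± 0.09 (limma adjusted p = 0.0162), with adjusted p of 0.0659 to 0.0705 without DMSO replicates 1, 2 or 3, which leaves 1 ligand that fell. Of 10 receptor and Smad genes tested, 0 passed limma's threshold, 1 had an unadjusted p under 0.05, and the median was -0.0048. Beside the 10.8% called by adjusted p among all probes, 0 of 10 called is near the background. The share of all probes with an unadjusted p under 0.05 is not given here. The type I receptor gene Bmpr1a changed by 0.09 ± 0.05. The signal transducers Smad1, Smad5 and Smad4 changed by 0.01 ± 0.09, -0.02 ± 0.05 and -0.11 ± 0.09, and the sign of Smad1 turned under other scalings.

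Of 10 other BMP-Smad target genes tested, 1 rose and 4 fell, with a median of -0.08. The shares over all probes were 4.29% higher and 6.49% lower. Smad6 and Smad7, which encode inhibitory Smads, were at 0.656, 0.650 and 0.646 times and at 0.0429, 0.0403 and 0.0410 times their DMSO means on the treated arrays, so both lay below every control array. Their log2 changes were -0.62 ± 0.05 and -4.60 ± 0.05 (limma adjusted p = 0.00203 and 3.92e-06). Smad7 is a known target of Nodal and TGF-beta signals as well. Hey1, a bHLH repressor also known as a Notch target, changed by -1.27 ± 0.09, and Dusp9, an ERK phosphatase gene, by -0.41 ± 0.05, with an adjusted p of 0.0526 without DMSO replicate 2. Gata3, a transcription factor gene of trophoblast, was the 1 that rose, to 1.85, 1.77 and 2.29 times the DMSO mean (log2 change 0.97 ± 0.11). The processed signals of Gata3 were low, at 22.5 to 23.7 with DMSO and 34.5 to 55.8 with SB431542, though well above background on all arrays. Msx2, a homeobox gene, changed by 0.36 ± 0.10 with no overlap and an adjusted p of 0.0716. Msx2 lies outside the rule for named genes and was singled out after its value was seen.

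Of 9 antagonists and inhibitors of BMP signalling tested, 1 rose and 3 fell, with a median of 0.05. The shares over all probes were 4.29% higher and 6.49% lower. Smad6 and Smad7 are 2 of the 3 that fell. The other, Fst, encodes follistatin, which binds activin and some BMPs, and changed by -0.60 ± 0.09, and lost its call when DMSO replicate 2 or 3 was left out, with an adjusted p between 0.0603 and 0.0649 and 2 that fell. Smurf1, a ubiquitin ligase gene, changed by 0.29 ± 0.06 (limma adjusted p = 0.0387), and its adjusted p was 0.0700 to 0.143 without any 1 of the 6 arrays. None of the antagonists rose in those 6 fits.

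**Figure D4:**
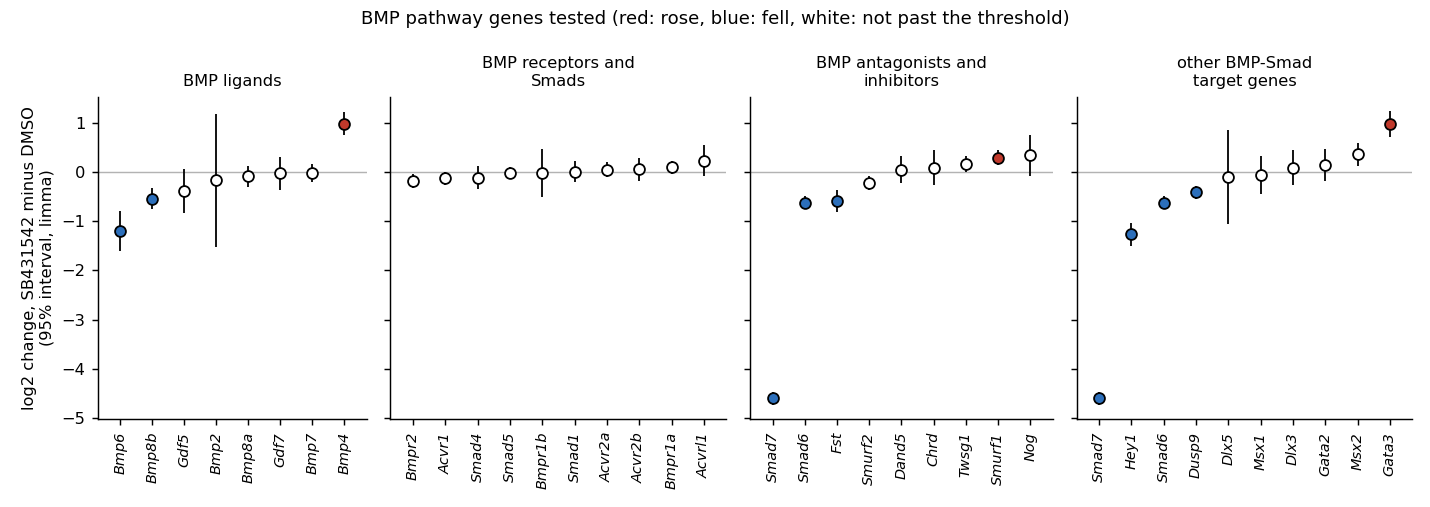
Each point is the log2 change of 1 gene by its brightest probe, with the 95% interval from limma, in 4 gene lists. Smad7 at -4.60 is the lowest point, Bmp4 at 0.98 and Gata3 at 0.97 are the highest, and the receptor and Smad genes are all white.

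The binding partners of Id proteins were examined next. The E protein genes Tcf3, Tcf4 and Tcf12 changed by 0.11 ± 0.05, -0.06 ± 0.07 and 0.08 ± 0.10, and 0 of 3 passed limma's test or had an unadjusted p under 0.05. With 10.8% called by adjusted p among all probes, 0 of 3 called is near the background. The share of all probes with an unadjusted p under 0.05 is not given here. A second probe gave -0.04 for Tcf3, -0.47 for Tcf4 and 0.34 for Tcf12, with limma adjusted p of 0.688, 0.0745 and 0.149, so for Tcf4 and Tcf12 the probes disagreed in size. Of 8 tested genes for partners outside the bHLH class, 1 rose, near the share of 10.8% called among all probes (4.29% higher). This was Elk3, an Ets-family factor gene, at 0.47 ± 0.07 by its brightest probe and 0.61 and 0.42 by the others. Ets1, of the same family, changed by -0.21 ± 0.14 by its brightest probe and by -0.86 ± 0.17 by the other (limma adjusted p = 0.419 and 0.0290), and 1 partner fell where probes of one gene were averaged. Ets1 lies outside the rule for named genes and was added after its values were seen. Leaving out DMSO replicate 2 or 3 put the adjusted p of Elk3 between 0.0546 and 0.0561, so that 0 partners rose.

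Genes for lineage bHLH factors moved in both directions. Of 20 tested, 3 rose and 6 fell, with a median of -0.10, and 15 of the list of 35 were too dim to test. Among all probes tested, 4.29% were called higher and 6.49% lower. Myf6, one of the 6, entered the test only through the DMSO arrays, and 5 of 18 fell among members well above background on all arrays. Tcf15, a bHLH factor gene that Id proteins are known to hold back in embryonic stem cells, was at 1.04, 1.01 and 0.953 times its DMSO mean on the control arrays and at 0.708, 0.678 and 0.667 times on the treated arrays. Its log2 change was -0.55 ± 0.06 (limma adjusted p = 0.00503). Bhlha15, known from secretory cells, changed by -1.11 ± 0.06, Olig1 by -0.51 ± 0.06 and Scx, known from tendon, by -0.55 ± 0.08. Neurog3, known from endocrine progenitors of the pancreas, rose to 3.23, 2.73 and 2.86 times the DMSO mean (log2 change 1.55 ± 0.10), Olig3 rose by 0.61 ± 0.08 and Msc by 0.50 ± 0.09. Tal1, a blood factor gene, changed by -0.79 ± 0.14. Myf6, a muscle factor gene, was not well above background on any SB431542 array, so the size of its difference is not given. Msc, Tal1 and Myf6 lie outside the rule for named genes and were added after their values were seen. Without DMSO replicates 1, 2 and 3 the counts that fell were 3, 4 and 3. The adjusted p was then 0.0508 to 0.0828 for Tal1 and 0.0590 to 0.0848 for Msc without any DMSO array or SB431542 replicate 1, 0.0643 to 0.0823 for Myf6 without any DMSO array or SB431542 replicate 2, and 0.0548 to 0.0587 for Scx without DMSO replicate 1 or 3.

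Of 7 tested genes for Hes and Hey factors, bHLH proteins of which some act downstream of Notch, 3 fell and 0 rose, with a median of -0.15. These were Hey1, given above, Hes1 (-0.70 ± 0.08, at 0.626, 0.597 and 0.628 times its DMSO mean) and Hes6 (-0.57 ± 0.06). The count that fell was 3 without each of the 6 arrays in turn. Among all probes tested, 6.49% were called lower and 4.29% higher.

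**Figure D5:**
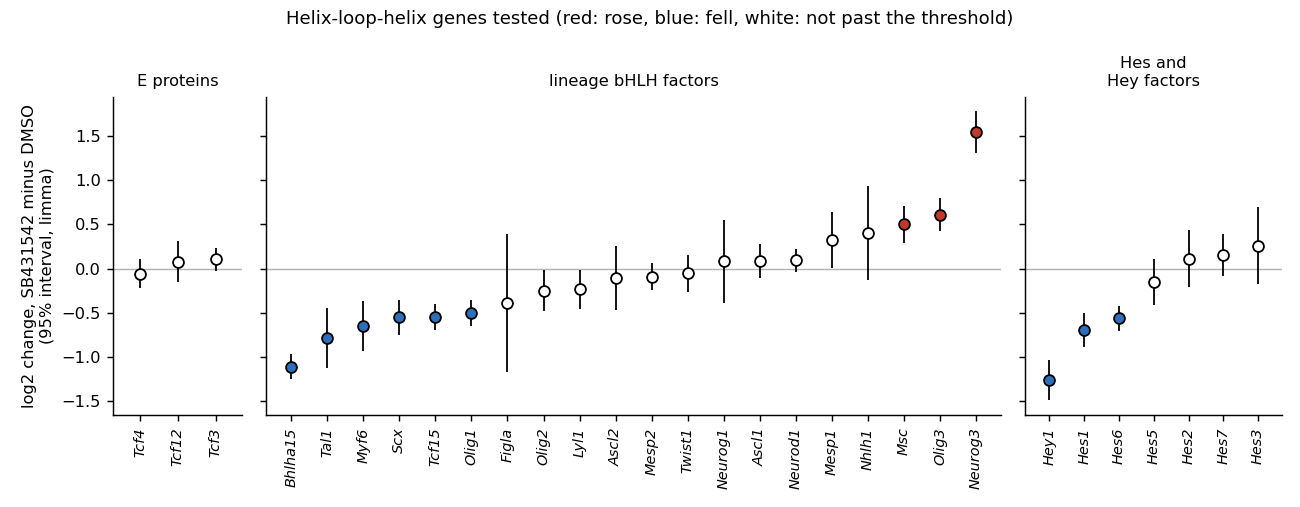
Each point is the log2 change of 1 gene by its brightest probe, with the 95% interval from limma, for E proteins, lineage bHLH factors and Hes and Hey factors. The E protein genes lie between -0.06 and 0.11 and are white, Neurog3 at 1.55 is the highest point and Hey1 at -1.27 the lowest.

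Of 8 tested genes for factors reported to act on Id genes, 1 rose and 3 fell, with a median of -0.20. The shares over all probes were 4.29% higher and 6.49% lower. Atf3, a stress-induced factor gene reported to repress Id1 together with Smad3 in epithelial cells, was at 0.312, 0.204 and 0.246 times its DMSO mean on the treated arrays (log2 change -2.00 ± 0.15). Egr1, an immediate early gene, was at 0.286, 0.333 and 0.334 times (-1.66 ± 0.08), and Myc at 0.514, 0.470 and 0.473 times (-1.04 ± 0.08). All treated arrays lay below all control arrays for these 3 genes. Smad3 changed by 0.28 ± 0.06 (limma adjusted p = 0.0489), with adjusted p of 0.0724 to 0.160 when any 1 array was left out, so that 0 rose in each of those fits. Whether any of these bears on the Id changes was not tested.

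Of 5 tested genes known as targets of E proteins, 2 fell and 0 rose, with a median of -0.0020. The shares over all probes were 4.29% higher and 6.49% lower. Cdkn1c, a cyclin-dependent kinase inhibitor gene, changed by -1.36 ± 0.08 and was at 0.375, 0.428 and 0.365 times its DMSO mean. Cdkn1a, which encodes the inhibitor p21, changed by -0.54 ± 0.11 by its brightest probe and by -0.02 by the other, and only Cdkn1c fell when a DMSO array or SB431542 replicate 1 was left out (adjusted p of Cdkn1a 0.0839 to 0.118). Cdh1, the E-cadherin gene that E proteins repress, changed by 0.12 ± 0.05 (limma adjusted p = 0.228). Over all 10 lists, 85 distinct genes were tested, of which 8 rose and 20 fell, beside 10.8% called among all probes. The lists were chosen with earlier results known, so these counts describe the genes and are not evidence of their own.

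The genes whose profiles lay closest to each Id gene were found by the root-mean-square distance between log2 profiles centred on the DMSO mean, over 6 arrays and 14847 genes well above background on all of them. The group difference dominates this measure. Closest to Id1 were Klk1 (distance 0.03), Klk1b26, Slc35g2, Siglecf and Nkx6-2, with log2 changes of 0.91 to 0.98. Klk1 and Klk1b26 are kallikrein genes of a family of near-identical copies, so their identity is uncertain. Closest to Id3 were Afap1, Akr1b8, Pmel, Pga5 and Ror2, the last a receptor gene for Wnt ligands, with changes of 0.64 to 0.70. Closest to Id4 were A630001G21Rik, Cubn, Adgra2, Atf5 and Snx7, with changes of -0.51 to -0.42, of which Cubn and Atf5 passed the threshold.

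Of the nearest genes on each side and 1 overlapping non-coding gene, 17 in all, 6 had a tested probe. Next to Id1, H13 changed by 0.02 ± 0.06 and Mcts2 by -0.03 ± 0.06. Next to Id2, Kidins220 changed by 0.07 ± 0.11. Next to Id3, the ribosomal protein gene Rpl11 changed by -0.10 ± 0.07, the cell-cycle factor gene E2f2 by 0.13 ± 0.07 and Asap3 by -0.21 ± 0.10. None of the 6 passed limma's adjusted threshold, and 0 had an unadjusted p under 0.05. With 10.8% called by adjusted p among all probes, 0 of 6 called is near the background. The share of all probes with an unadjusted p under 0.05 is not given here. No gene beside Id4 had a tested probe.

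The tissue label was checked against markers. Beside the counts below, 4.29% of all probes tested were called higher and 6.49% lower. All 8 embryonic stem cell markers were well above background, with 0 higher and 2 lower (Dppa5a at -0.49 ± 0.07 and Utf1 at -0.42 ± 0.06), and their summed level ran from 59229% to 61315% of the 75th percentile with DMSO and from 44522% to 49797% with SB431542. Dppa5a carried most of that difference, and the other 7 summed to 21617% to 22309% against 18916% to 20994%. Id1 is abundant in endothelium. Of 6 endothelial markers Cdh5 and Emcn were not well above background on any array, 0 rose and 1 fell, and the sum was 1100.3% to 1211% with DMSO and 1204% to 1501% with SB431542. Without Kdr (log2 change 0.27 ± 0.10, limma adjusted p = 0.166) the endothelial sum was 86.2% to 92.7% against 77.2% to 80.4%. Of 8 fibroblast markers Lum and Postn were not well above background on any array, 0 rose and 3 fell. Among the 3, Dcn was well above background on the 3 DMSO arrays alone. The fibroblast sum was 236% to 252% against 189% to 209%, and without Thy1 it was 98.8% to 105% against 56.9% to 67.5%. Primitive endoderm markers (6 of 6 tested, 1 rose and 0 fell) summed to 93.8% to 98.2% against 95.8% to 109%. Without Gata6 they summed to 68.6% to 70.9% against 64.6% to 69.4%. Trophoblast markers (3 of 5 tested, with Elf5 and Hand1 not well above background, 0 called) summed to 105% to 115% against 99.6% to 111%. Neural markers (4 of 5 tested, with Neurog2 not well above background, 0 rose and 2 fell) summed to 311% to 317% against 236% to 254%. Without Nes they summed to 158% to 162% against 135% to 150%. Each sum adds levels of different probes, which are not comparable, so it serves only to compare arrays within a list. The part of other cell types in the Id changes was not tested. The share of spots well above background ran from 63.9% to 66.2%, with 0 saturated. Across probes, the correlation of arrays was 0.997 for DMSO, 0.994 to 0.996 for SB431542, and 0.9904 to 0.9934 for arrays of different groups.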

How the data were processed

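The deposited scanner intensity of each spot is Agilent Feature Extraction's processed signal, per the file headers (version 10.7, per the submitters' processing notes). Each flag for spots well above background, outlier or saturated is a score of 0 or 1, per the file headers. A further deposited table holds log2 values with equal column medians of 5.18, which served as an alternative; the sources used here do not say how they were normalized.

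Outlier spots were left out, which removed 81 of 55681 probes. Log2 processed signals were set relative to the 75th percentile of the array's non-control probes. The test took each probe that was well above background on 3 or more of 6 arrays, singly, with limma 3.58.1 in R 4.3.3 (lmFit and eBayes, two-sided, Benjamini-Hochberg over 36184 probes, threshold 0.05). The files were read with Python 3.11.15. Changes are SB431542 minus DMSO with the SE of the fit, and "rose" and "fell" mean past the threshold. The brightest tested probe stood for a gene. Accessions were matched without version to RefSeq genes of GRCm38.p6, which named 27235 probes. The array grid uses mm9, so no gene coordinates are given beside the promoter windows.

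The members and gene lists were chosen with earlier results of these data known. The genes named were the Id genes, up to 6 members past the threshold per list, 14 genes fixed by name, the 5 closest profiles per Id gene past the threshold, and the nearest neighbours. Alternatives covered background, scaling, the filter, probes per gene, trend, slide and replicate blocks, the threshold and leaving out each array. The planned background alternative used mean signals, and median signals took their place because the files used hold no such column. On simulated data for this comparison with 100 probes changed at each size among 36184, 22% were recovered at a log2 change of 0.5 and 73% at 1. Far fewer probes were changed there than the 3900 called in the data. The adjustment was therefore stricter in the simulation, and these shares do not measure recovery in the data. For arrays, their number limits the precision.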

Additional observations from a re-analysis of the deposited data

How the results depend on the processing

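Over 19 alternatives, Id1 stayed past the threshold with log2 changes of 0.87 to 1.03 and Id3 with 0.57 to 0.68, and Id2 stayed short of it with 0.03 to 0.18. The 19 are not separate checks. With 1 probe per Id gene, the choices of filter, probes per gene, trend, replicate block and threshold left the estimates unchanged. Id4 kept its direction in all 19 and its call in 7. Its log2 change was -0.47 with quantile normalization, -0.46 in the deposited table, -0.48 with no filter on dim probes, -0.42 with slide as a block, -0.48 with the replicate number as a block and -0.48 at an adjusted p under 0.01, each short of the threshold used, with adjusted p of 0.0566, 0.0551, 0.104, 0.106, 0.0691 and 0.0478. Leaving out single arrays gave -0.57 to -0.42. Under normexp its change was -0.29, still called (adjusted p = 0.0222), with a different signal and offset.

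The count of changed probes was 3900, and 2252 with no filter, which tests more probes, 1353 at an adjusted p under 0.01, 1607 with the replicate block, 5198 with eBayes trend, and 1590 to 3310 without single arrays. List members changed numbered 28, 18 with the replicate block, and 18 to 26 without single arrays, which leaves fewer samples. Same-numbered arrays deviated with correlations of 0.0006, 0.07 and -0.04. These values cannot decide whether the numbers pair the samples, since the labels leave it unsaid and SB431542 replicate 3 lay on another slide. With the block Id1 and Id3 stayed called (adjusted p = 0.0187 and 0.0295). The change of Smad1, never called, turned to -0.018 under normexp, -0.0096 with quantile normalization, -0.0029 with median centring and -0.011 in the deposited table, and ran from -0.068 to 0.058 without single arrays. That of Smad5 turned to 0.040 with the mean of probes. Differences between Id genes kept their sign under normexp and without each array. The slide block and the fit without SB431542 replicate 3 are the same fit.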
